A study of Mus musculus with 5 samples.

Results

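Keratins are the intermediate filament proteins of epithelial cells, and their genes were examined here for trimethylation of histone H3 lysine 27 (H3K27me3) in the molar mesenchyme, a tissue that is not epithelial. The members were the protein-coding genes of the GENCODE M21 annotation (mouse build GRCm38) whose symbol is Krt followed by a number and, in some, a letter. There were 53 of them among 21938 protein-coding genes, with 27 in the type I cluster on chromosome 11 and 26 in the type II cluster on chromosome 15, where the type I gene Krt18 lies as well. H3K27me3 ChIP-seq was performed on mesenchyme dissected from molars of wildtype C57BL/6 mice at postnatal day 3, after the epithelium was taken off. The 5 libraries were 2 of H3K27me3, each with its own input of chromatin without immunoprecipitation, and 1 of nonspecific IgG, the negative control of replicate 1. No allele, drug or other treatment was applied to any group. Whether separate animals gave the H3K27me3 libraries is not stated in the labels, so each SD reports how far 2 libraries lay apart, which may be technical. In this bulk tissue, fewer cells with the mark and less of the mark per cell cannot be told apart.

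Type I keratins are acidic and type II keratins are basic or neutral, and a filament is built from pairs of one type I and one type II protein. Which pair a cell makes marks its epithelial type. Krt8 and Krt18 are the pair of simple epithelia, Krt5 and Krt14 that of basal cells, Krt1 and Krt10 that of the differentiating epidermis, and further genes serve the hair shaft and the inner root sheath that surrounds it. In the tooth, Krt14 labels the dental epithelium and the root sheath that grows from it, whereas the mesenchyme uses vimentin. The mark H3K27me3 is written by the methyltransferase Ezh2 within Polycomb repressive complex 2 and lies over many silent developmental genes, mostly at CpG-rich promoters. The files hold peaks and no expression values, so whether the keratin genes were silent in this tissue was not measured here.

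The 5′ ends of keratin genes carried few H3K27me3 peaks, at shares near those of protein-coding genes in general, and none of the 53 had a peak within 1 kb in both replicates. Counting the whole locus, meaning the gene body and its 5 kb flanks, 5 keratin genes had a peak in both replicates. These were Krt12, Krt20, Krt39, Krt73 and Krt88. The stretch from Krt12 to Krt20 on chromosome 11 held the only keratin site at which a replicate 1 peak and a replicate 2 peak, both called against input, overlapped. Krt12 encodes the type I keratin of the corneal epithelium and Krt20 that of the intestinal and urinary lining.

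The sequences of that locus are shown because Krt12 had the highest share of bases covered by peaks of all keratin genes. They are the GRCm38.p6 sequence (RefSeq) under replicate 1 peaks called against input, on the minus strand, which is the coding strand of Krt12, with every CpG dinucleotide in capitals. The first is the site shared by both replicates, in the interval between the genes. The second lies in the flank beyond the 3′ end of Krt12, and the last 2 lie in introns of Krt12. The locus had 1 further replicate 1 peak, upstream of Krt12 (chromosome 11, 99425255 to 99425455), whose sequence is not shown.
chr11:99423970-99424149: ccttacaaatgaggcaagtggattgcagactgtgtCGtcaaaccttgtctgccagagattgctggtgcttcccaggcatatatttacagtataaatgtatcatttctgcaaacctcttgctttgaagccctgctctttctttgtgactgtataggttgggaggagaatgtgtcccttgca
chr11:99414691-99414863: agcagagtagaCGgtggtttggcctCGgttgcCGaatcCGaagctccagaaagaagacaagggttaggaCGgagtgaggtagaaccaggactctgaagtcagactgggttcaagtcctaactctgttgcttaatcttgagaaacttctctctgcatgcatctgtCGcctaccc
chr11:99417297-99417437: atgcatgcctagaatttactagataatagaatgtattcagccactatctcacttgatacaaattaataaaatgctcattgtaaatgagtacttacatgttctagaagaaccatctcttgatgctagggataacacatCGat
chr11:99419993-99420150: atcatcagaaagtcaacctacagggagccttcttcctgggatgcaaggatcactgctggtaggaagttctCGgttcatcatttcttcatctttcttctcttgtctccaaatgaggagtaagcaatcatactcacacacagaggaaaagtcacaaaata
The shared site is 180 bp long with 1 CpG and a GC content of 44.4%. The second peak has 6 CpGs in 173 bp, and each intronic peak has 1 CpG, in 141 bp and 158 bp. CpG dinucleotides were thus sparse at the shared site.

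The libraries differed in depth. After removal of duplicates, H3K27me3 replicate 1 had 30369351 tags of 49 bp and replicate 2 had 49947919 tags of 74 bp, so depth, tag length and replicate cannot be told apart. The authors' peak lists held 22757 peaks for replicate 1 over its input, 24881 when IgG was the control, and 33379 for replicate 2 over its input. The IgG comparison used the same H3K27me3 library as the first list and is not a replicate of its own.

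Peaks at the 5′ ends were counted first. Within 1 kb, 1 of 53 keratin genes (1.89%, 95% Wilson interval 0.334% to 9.94%) had a peak in replicate 1 against input, where 3.87% of all protein-coding genes did. In replicate 1 against IgG there were 3 (5.66%, interval 1.94% to 15.4%), with 4.52% over all genes. In replicate 2 there were 2 (3.77%, interval 1.04% to 12.8%), with 4.16% over all genes. Each of these keratin shares has an interval that includes the share over all genes. In both replicates there were 0 of 53, for which 3 counts would be a share of 5.66% and the Wilson interval ends at 6.76%, and the share over all genes was 1.04%. In any of the 3 lists there were 5 (9.43%, interval 4.10% to 20.3%), with 8.56% over all genes. A difference from other genes was therefore not detectable within 1 kb with 53 genes. The wider window of 5 kb gave 9 keratin genes (17.0%, interval 9.20% to 29.2%) in replicate 1 against input, with 11.7% over all genes. It gave 14 (26.4%, interval 16.4% to 39.6%) with the IgG control, where 12.5% of all genes lay below the interval. In replicate 2 it gave 5 (9.43%, interval 4.10% to 20.3%), with 13.2% over all genes, and in both replicates 1 (1.89%, interval 0.334% to 9.94%), with 4.31%. The share over all genes thus lay outside the keratin interval in the IgG list alone. Keratins were above it in replicate 1 against input, and below it in replicate 2 and in both replicates.

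The 5 genes behind these counts were different ones in each replicate. Krt87, a hair keratin of type II, had 2 peaks within 1 kb in replicate 1 against input, 410 bp upstream of the 5′ end (chromosome 15, 101439214 to 101439476) and in an intron 838 bp downstream of it. The upstream peak was also called against IgG, while the closest replicate 2 peak was 8214 bp away. Krt13, a keratin of the oral and oesophageal lining, had a peak 49 bp upstream of its 5′ end (chromosome 11, 100121615 to 100121838) called against IgG but not against input, where the closest peak was 110502 bp away. Krt71, of the inner root sheath, had an exonic peak 191 bp from its 5′ end, again against IgG alone. In replicate 2, Krt88 had a peak 375 bp upstream of its 5′ end (chromosome 15, 101447018 to 101447369) and Krt77, an epidermal keratin, had one of 71 bp in an exon 636 bp from its 5′ end (chromosome 15, 101868999 to 101869069). No keratin 5′ end with a peak in replicate 2 had one in either replicate 1 list. Over all protein-coding genes, 912 had a replicate 2 peak within 1 kb, and 228 had one in both replicates against input. With so few keratin genes, the lack of overlap does not set keratins apart.

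**Figure D1:**
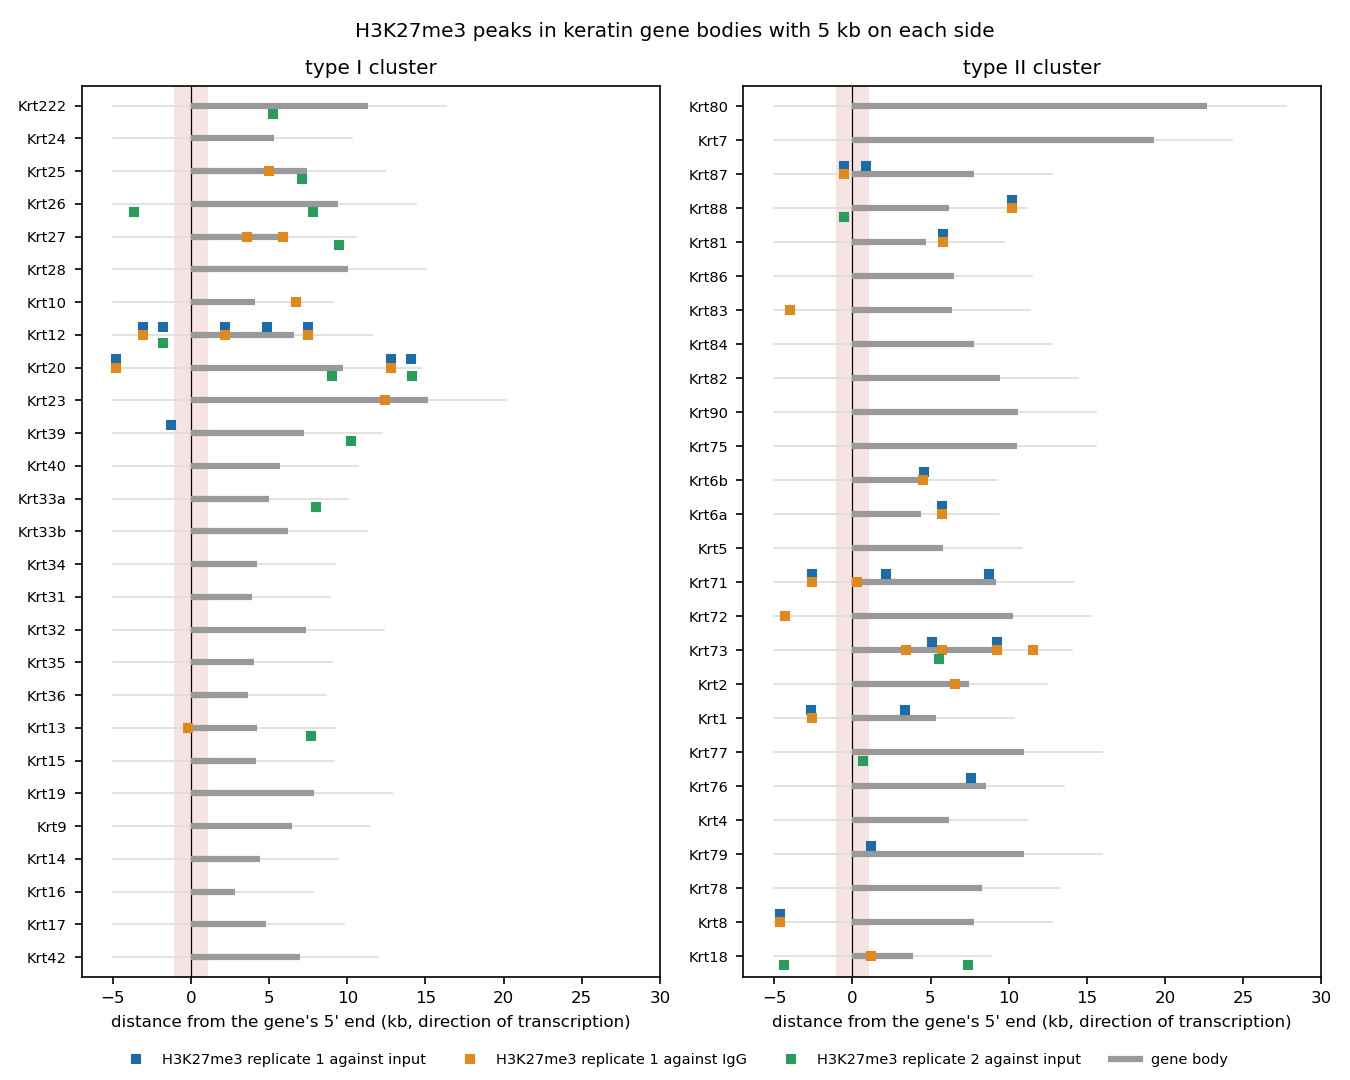
Peaks of the 3 lists along the 53 keratin genes, each row a gene in chromosomal order, with the cluster of chromosome 11 on the left and that of chromosome 15, Krt18 included, on the right; the x axis is the distance in kb from the 5′ end in the direction of transcription, squares are peak centres, grey bars are gene bodies, thin lines the 5 kb flanks and the shaded band the 1 kb on each side of the 5′ end. The band holds peaks at 5 genes (Krt13, Krt87, Krt88, Krt71 and Krt77), 26 rows have no peak in any list, and a peak in the flanks of neighbouring genes is drawn in both rows.

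Whole loci were counted next. A peak lay in the locus of 14 of 53 keratin genes (26.4%, interval 16.4% to 39.6%) in replicate 1 against input, with 25% over all protein-coding genes. Against IgG there were 20 (37.7%, interval 25.9% to 51.2%), with 25.9% over all genes. In replicate 2 there were 13 (24.5%, interval 14.9% to 37.6%), with 35.7% over all genes. Both replicates had a peak at 5 (9.43%, interval 4.10% to 20.3%), and over all genes the share was 15.7%. The shares lay on either side of those over all genes, and the lower bound for the IgG list came to the share over all genes at the digits given. Keratin loci were shorter than others, with a median of 16.6 kb (12.8 kb to 32.7 kb) compared with 27.4 kb over all protein-coding genes, so that the shares of genes are not on an equal footing. A peak in exactly 1 replicate was seen at 17 of 53 keratin loci. The matching share over all genes is not given here, so this count does not set keratins apart. No peak in any list was seen at 26 of 53. The other 27 (50.9%) had one in at least 1 list, with 49% over all genes. In gene bodies without flanks, 7 keratin genes (13.2%, interval 6.55% to 24.8%) had a peak in replicate 1 against input, with 19.3% over all genes, and 8 (15.1%, interval 7.85% to 27.1%) with the IgG control, with 20.1%. In replicate 2 there were 6 (11.3%, interval 5.29% to 22.6%), and the 28.5% over all genes lay above the interval. Krt73 was the 1 keratin gene (1.89%, interval 0.334% to 9.94%) with a peak in its body in both replicates, and the 12.3% over all genes again lay above the interval. In any list there were 16 (30.2%, interval 19.5% to 43.5%), with 38.6% over all genes. The part of gene length in these lower shares was not tested.

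Per base, merged keratin loci held more peaks than protein-coding loci did on average in each list, with the smallest margin in replicate 2. No counting interval is given for these densities, so whether the replicate 2 margin exceeds counting error was not tested. Since neighbouring loci overlap, they were merged into 27 intervals of 824 kb. These held 22 peaks in replicate 1 against input, or 26.7 per Mb, with 10.3 per Mb over all protein-coding loci merged in the same way. Against IgG there were 25 peaks, or 30.3 per Mb, with 11.4 per Mb. In replicate 2 there were 14 peaks, or 17.0 per Mb, with 13.9 per Mb. By cluster, replicate 2 had 22.7 peaks per Mb at loci of the type I cluster. At those of the type II cluster it had 11.7 per Mb and 0.266% of bases covered, below the 13.9 per Mb and 0.273% over all protein-coding loci. From first to last keratin, other genes included, the type I cluster had 13.5 peaks per Mb in replicate 1 against input. In replicate 2 that stretch had 11.6 per Mb and 0.193% covered, also below all protein-coding loci. The type II stretch had 27.8 and 16.1 per Mb. Peaks covered 0.346% of the bases with input and 0.389% with IgG as the control of replicate 1, and 0.330% for replicate 2, compared with 0.142%, 0.159% and 0.273% over all protein-coding loci. The mean of both replicates against input was 0.338% ± 0.0110 (SD, n = 2) for keratin loci and 0.207% ± 0.0931 (SD, n = 2) for all protein-coding loci. The mean covered length per peak was 130 bp and 195 bp at keratin loci and 138 bp and 197 bp at all protein-coding loci, in replicates 1 and 2. Without the loci of Krt12 and Krt20, chosen after the values were seen, the density was 20.2, 26.5 and 15.2 peaks per Mb and the mean covered share 0.262% ± 0.0462 (SD, n = 2). All protein-coding loci of chromosome 11 had 14.0 peaks per Mb in replicate 1 against input and 16.0 in replicate 2, and those of chromosome 15 had 11.3 and 13.8. The 15.2 per Mb of replicate 2 without Krt12 and Krt20 lay between these replicate 2 values.

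Krt12 (ENSMUSG00000020912.4, chromosome 11, 99415666 to 99422259, minus strand) had 5 peaks in its locus in replicate 1 against input, 3 with the IgG control and 1 in replicate 2. The bases covered amounted to 5.14%, 3.18% and 1.92%, and the mean over replicates against input was 3.53% ± 2.28 (SD, n = 2), above 98.9% of protein-coding genes. Of the 5 peaks, 2 lay in introns, 2 upstream and 1 downstream of the gene, and the nearest was 1711 bp from the 5′ end. The shared site (chromosome 11, 99423970 to 99424149) lies 1711 bp upstream of Krt12 and 4254 bp beyond the 3′ end of Krt20, in the 6143 bp between these genes. The replicate 1 peak there lies wholly within the replicate 2 peak (99423869 to 99424187, 319 bp). Its fold enrichment, the authors' ratio of tag pileup to the control's background, was 2.60 in replicate 1 and 2.44 in replicate 2. It was not called against IgG, where the closest peaks on either side were those at 99419993 and 99425255.

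Krt20 (chromosome 11, 99428403 to 99438150, minus strand) had 3, 2 and 2 peaks in the same order of lists, covering 2.85%, 1.92% and 1.97%, or 2.41% ± 0.619 (SD, n = 2) against input. Of its replicate 1 peaks against input, 2 are shared with the flank of Krt12. The replicate 2 peaks were the shared site and an exonic peak of 71 bp (99429063 to 99429133), and no peak came nearer to its 5′ end than 4727 bp. As in Krt12, the body and flanks and not the 5′ end held the peaks.

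Krt73 (chromosome 15, 101793308 to 101802346, minus strand), a keratin of the inner root sheath, had 2 peaks against input and 4 against IgG in replicate 1, and 1 in replicate 2. Peaks covered 1.09%, 2.07% and 2.05% of the locus, and 1.57% ± 0.683 (SD, n = 2) against input. The replicate 2 peak (101796577 to 101796967) lies in an intron and overlaps an IgG-called peak (101796564 to 101796609) but no input-called one. Krt88 (chromosome 15, 101447744 to 101453907, plus strand) had 1 peak in each list, downstream in replicate 1 and upstream in replicate 2, and a covered share of 0.285%, 0.285% and 2.18%. Krt39, a hair keratin on chromosome 11, had 1 upstream peak in replicate 1 against input, none against IgG and 1 downstream peak in replicate 2. Krt18 (chromosome 15, 102028180 to 102032027, plus strand) had the next highest mean covered share after Krt88, with 0% for replicate 1 over input, 0.664% over IgG and 2.33% for replicate 2, or 1.17% ± 1.65 (SD, n = 2) against input. For Krt88 and Krt18 the SD was larger than the mean.

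**Figure D2:**
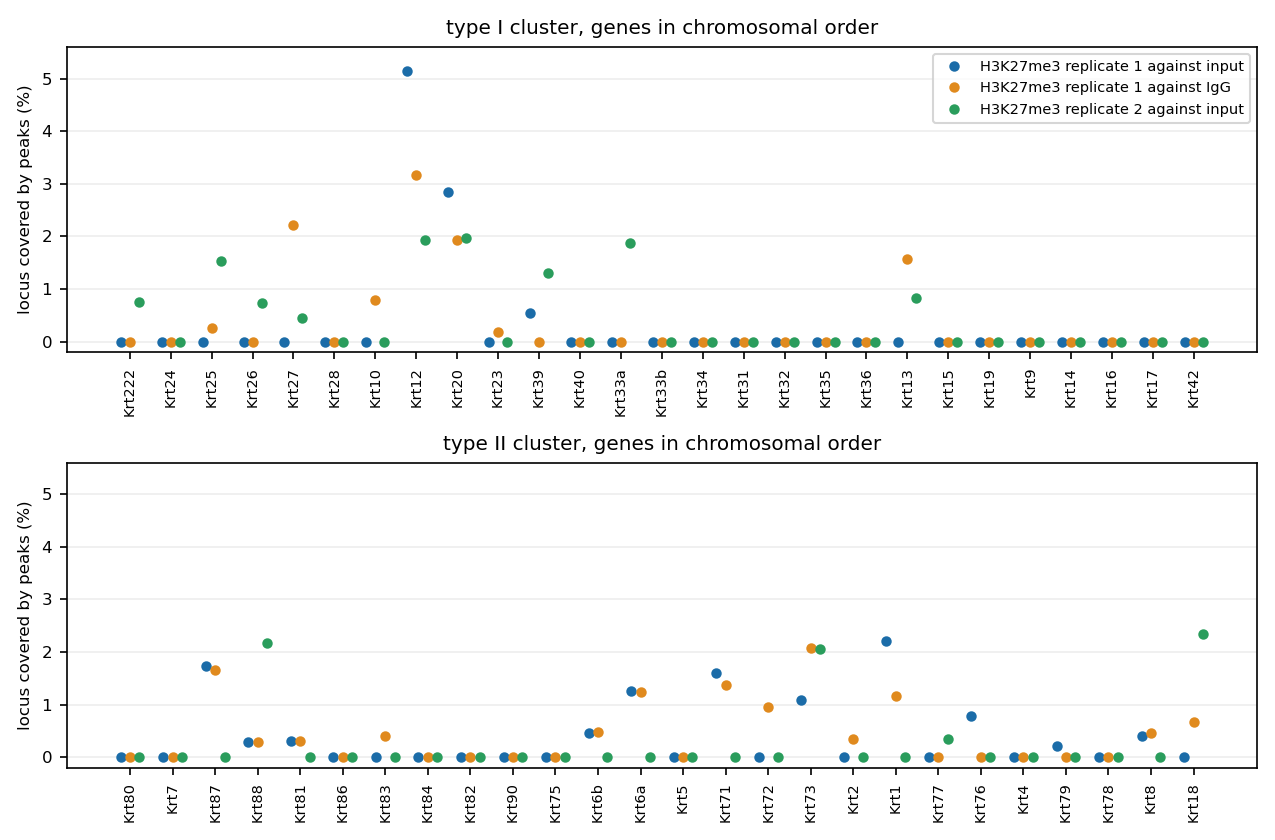
Percent of bases under peaks in each keratin locus, flanks of 5 kb included, one point per list, for the type I cluster of chromosome 11 above and the type II cluster of chromosome 15 below, in chromosomal order, with Krt18, a type I keratin, in the latter by its position. Krt12 reaches 5.14% in replicate 1 against input, and 3 genes (Krt12, Krt20 and Krt73) are above 1% in both replicates against input. At 0% in both of these lists are 31 keratin genes (58.5%), near the 54.9% over all protein-coding genes.

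The keratins of basal cells and of simple epithelia varied from no peak in any list to Krt20, the second highest of all keratin genes by mean covered share. The basal cell genes Krt5, Krt14 and Krt15 had 0 peaks in their loci in any list, as did 11197 of 21938 protein-coding genes. The closest peak to the 5′ end of Krt14 (chromosome 11, 100203162 to 100207548) was 24520 bp away with replicate 1 and its input, 24531 bp with IgG as control and 8873 bp for replicate 2. For Krt5 (chromosome 15, 101707070 to 101712898) these distances were 21459 bp, 24265 bp and 60140 bp. The median over all protein-coding genes was 55.4 kb, 53.4 kb and 31.4 kb. Of these distances, only that of Krt5 in replicate 2 was above the median. Of the simple epithelial genes other than Krt20, Krt7 and Krt19 had no peak in any list. Krt8 had 1 peak in each replicate 1 list, about 4.6 kb upstream of its 5′ end (4598 bp and 4591 bp), and none in replicate 2. Its filament partner Krt18 had none for replicate 1 over input, 1 in an intron over IgG and 2 in the flanks in replicate 2. Neither gene of this pair had a peak in both replicates, although Krt18 was among the 5 keratin genes of highest mean covered share.

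By class, the count of loci with a peak in both replicates was 1 of 5 simple epithelial genes (Krt20), 0 of 3 basal cell genes, 0 of 5 genes of activated and appendage epithelium, 1 of 13 suprabasal and specialised epithelial genes (Krt12), 1 of 7 inner root sheath genes (Krt73), 1 of 15 hair shaft genes (Krt39) and 0 of 4 others. Krt88 was placed in no class. Over all protein-coding genes the share was 15.7%, and with 3 to 15 genes in a class these counts do not separate the classes. In the type I cluster, 7 neighbouring genes from Krt15 to Krt42, with Krt14, Krt16, Krt17 and Krt19 among them, had no peak in any list, nor had the 6 hair genes from Krt33b to Krt36. In the type II cluster the same held for 4 neighbours, Krt84, Krt82, Krt90 and Krt75. These runs were picked after the values were seen. Of all 21938 protein-coding genes, 11197 had no peak in any list, and neighbours with overlapping flanks are not independent.

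By loci with a peak, the order of the clusters turned between replicates, though the Wilson intervals of the clusters overlapped in each list. From first to last keratin it did not turn. The type I stretch had 13.5 and 11.6 peaks per Mb and the type II stretch 27.8 and 16.1, in replicates 1 and 2 against input. In replicate 1 against input, 3 of 27 loci of the type I cluster and 11 of 26 of the type II cluster, Krt18 included, had a peak, and against IgG these counts were 7 and 13. In replicate 2 they were 9 of 27 (33.3%, interval 18.6% to 52.2%) and 4 of 26 (15.4%, interval 6.15% to 33.5%). Over all protein-coding genes the shares were 25%, 25.9% and 35.7% in the 3 lists. The covered share over both replicates against input was 0.342% ± 0.0813 (SD, n = 2) for merged loci of the type I cluster and 0.334% ± 0.0966 (SD, n = 2) for merged loci of the type II cluster, a difference smaller than either SD.

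Single keratin peaks were compared between lists by overlap, and with all peaks of their lists by height. Of the 22 replicate 1 peaks against input, 12 were overlapped by a peak against IgG, although the H3K27me3 library was the same, and 1 by a replicate 2 peak. Within 5 kb of a replicate 2 peak there were 5 of the 22. The same overlaps over all peaks of the list are not given here. These counts therefore cannot be called particular to keratins. Fold enrichments ranged from 2.50 to 3.08 for replicate 1 over its input, with a median of 2.60 (2.63 over all peaks of that list), from 2.55 to 3.03 against IgG and from 2.39 to 2.85 in replicate 2, with a median of 2.55 (2.45 over all its peaks). Of the 22, 12 had the lowest pileup in the list, 3.12, which 44.5% of all peaks in that list had. The deposited −log10 q was 0 for every keratin peak. The same held for nearly all peaks of the whole lists: 22756 and 24881 in replicate 1, against input and IgG, and 33134 in replicate 2. By position, 2 of the 22 touched exons of a keratin gene, 7 lay in introns and 13 in flanks, and in replicate 2 these numbers were 4, 2 and 8 of 14. Keratin peaks were thus of the height usual for their lists.

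Keratin genes are paralogs, and only uniquely mapped reads were kept, so the uniqueness of their sequence was measured. The share of positions whose 49 bp word occurs once in the genome had a median of 97.7% over keratin loci (81.6% to 100%), and 99.4% over 39 Hox loci. Within 1 kb of the 5′ end the median for keratin genes was 99.4%, and 5 of 53 were under 80%, with the lowest value, 70.8%, at Krt6a and Krt6b. At 74 bp, 2 of 53 were under 80%. Reads could thus be placed uniquely over most of each keratin locus.

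The 5′ ends of keratin genes shared a low CpG content, which did not enter their choice. The ratio of observed to expected CpG within 500 bases had a median of 0.302 (0.0779 to 0.583), compared with 0.552 over all protein-coding genes, and 51 of 53 lay at or below the latter. The exceptions were Krt28 and Krt87. In the CpG-poor set of protein-coding 5′ ends, at or below that median, 3.27% had a replicate 1 peak within 1 kb with the input control, 3.94% with IgG, 3.56% had one in replicate 2 and 0.574% in both replicates, and 7.95% in any list. The 51 CpG-poor keratin genes had 0, 2, 2 and 0. In the CpG-rich set the shares were 4.48%, 5.11%, 4.75% and 1.5%, with 9.17% in any list, and of Krt28 and Krt87 the latter had a peak in replicate 1 with either control. The part of CpG content in the keratin counts was not tested.

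**Figure D3:**
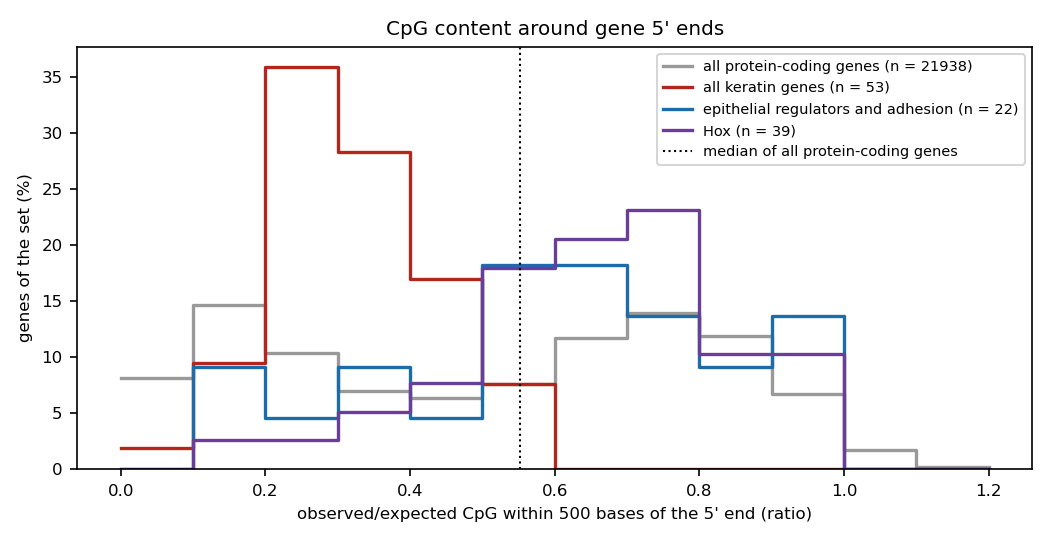
Distribution of the observed over expected CpG ratio within 500 bases of the 5′ end (x axis) as percent of genes in each set (y axis), in bins of 0.1, for all protein-coding genes, keratins, epithelial regulators and Hox genes. Of the keratins, 51 of 53 lie at or below the median of all protein-coding genes (dotted line, 0.552), and 31 of 39 Hox genes lie above it.

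Other genes of epithelial cells were counted in the same way. Keratin-associated proteins, the matrix between hair keratin filaments, had 0 of 57 genes with a peak within 1 kb in each of the 3 lists, where 3 counts would be a share of 5.26%. The sequence within 1 kb of their 5′ ends was less unique than that of keratins. For 49 bp words the median was 94.1%, the lowest value was 44.6%, and 9 of 57 were under 80%. Whether this lowered their count was not tested. The genes of the epidermal differentiation complex, which build the cornified envelope, had 1, 0 and 2 of 45, and Lor, which encodes loricrin, was the one with a peak in both replicates. Desmosomal genes, which anchor keratin filaments at cell junctions, had 0, 0 and 1 of 16. Transcriptional and splicing regulators and adhesion genes of epithelia had 5 of 22 (22.7%) for replicate 1 with the input control, 7 (31.8%) with IgG and 1 (4.55%) for replicate 2, where the shares over all genes were 3.87%, 4.52% and 4.16%. That 1 gene was Esrp1, an epithelial splicing regulator, which had a peak in both replicates. Of these 22 genes, 15 had a CpG ratio above the median of all genes, compared with 2 of 53 keratins and 0 of 57 keratin-associated proteins. Intermediate filament genes other than keratins, such as those of neurons, muscle and mesenchyme, had 3, 5 and 2 of 15, with none in both replicates. No test compares these lists with the keratins, so the shares are side by side only.

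**Figure D4:**
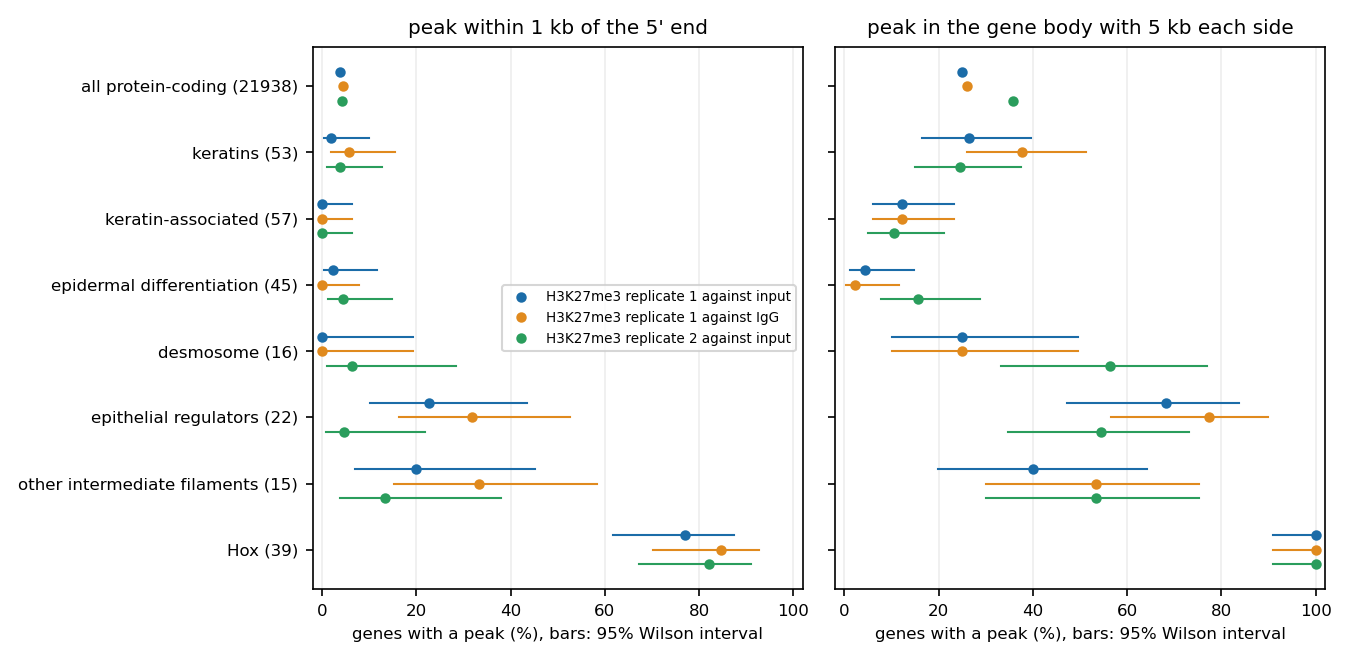
Percent of genes with an H3K27me3 peak within 1 kb of the 5′ end (left) and in the gene body and 5 kb flanks (right), for all protein-coding genes, keratins and 6 other lists, with the number of genes in brackets, points for the 3 peak lists and bars for 95% Wilson intervals. Keratins lie at 1.89% to 5.66% on the left, beside 3.87% to 4.52% for all genes, while Hox genes lie at 76.9% to 84.6%.

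The Hox genes gave the level that a marked gene family reached in the same lists. A peak within 1 kb was found at 30, 33 and 32 of 39 Hox 5′ ends, and merged Hox loci were covered to 12.8%, 15.5% and 10.3%. Krt12, the keratin of highest coverage, was covered to 5.14% or less in every list. Markers of the tissue were looked up as well. Of 10 dental mesenchyme markers, Pax9 had a peak within 1 kb in both replicates, Twist1 in replicate 1 and Prrx1 in replicate 2, and Col1a1 and Pdgfra had none in their loci. Among epithelium markers, Esrp1 had one in both replicates and Epcam in replicate 1, and Krt5 and Krt14 had none. Peaks alone do not show which of these genes were expressed.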

How the data were processed

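H3K27me3 ChIP-seq peaks of molar mesenchyme were analysed, with 2 H3K27me3, 2 input and 1 IgG libraries grouped by the submitters' labels. The authors aligned reads to GRCm38 with BWA, kept uniquely mapped reads and sorted them with SAMtools. The authors called broad peaks with MACS 2.1.1.20160309 at a p-value cutoff of 0.005, library by library without pooling, keeping 1 tag per position. A fragment size of 200 bp was requested, but the length MACS modelled, 46 bp in replicate 1 and 71 bp in replicate 2, was shorter than the tags, which narrows the pileup. The deposited values per peak were its length, pileup (a signal, the mean scaled tag coverage), fold enrichment (a ratio to local background, which depends on depth), and −log10 p-values and q-values. Selection was by p-value, and q-values were not computed for it per the file headers. Even so, some deposited −log10 q were above 0, and 4 replicate 2 peaks had a q-value of 0.05 or lower. Whether the zeros of the other peaks are calculated values or placeholders was not determined. The other deposited formats of each list were not used.

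Peaks were counted at an overlap of at least 1 base, with counting tested on simulated peaks. All 53 keratin genes had ATG at an annotated start codon in GRCm38.p6, and 0 peaks lay past a chromosome end. Unique words were counted on either strand of chromosomes 1 to 19, X and Y. Wilson intervals and the limit of 3 counts treat genes as independent and cover counting error only. No test across samples was possible, since the H3K27me3 libraries form 1 group. Members and lists were chosen with earlier results of these data known. The genes named were keratins with a peak within 1 kb of the 5′ end in any list, keratins with a peak in the locus in both replicates, the 5 of highest mean covered share, Krt14, Krt5, Krt8, Krt18, Krt19 and Krt7, and up to 5 genes per other list with a peak within 1 kb in both replicates. Neighbours without peaks, Krt28, the other tissue markers and the genes at the ends of ranges were named after their values were seen. Not every marker gene looked up is reported here. Alternatives were other windows, flanks, 5′ ends, cutoffs, overlap rules, controls and single replicates. Python 3.11.15, numpy 2.4.6, pandas 2.3.3, scipy 1.17.1, numba 0.67.0 and matplotlib 3.10.9 were used.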

Additional observations from a re-analysis of the deposited data

How the results depend on the processing

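The count of keratin genes with a peak within 1 kb of the 5′ end in both replicates remained 0 with the 5′ ends of any protein-coding transcript, fold enrichments of 3 or higher, −log10 p of 3 or higher, peak midpoints, an equal number of peaks and the IgG control. Windows of 5 kb gave 9 in replicate 1 against input, 14 against IgG, 5 in replicate 2 and 1 in both, with 11.7%, 12.5%, 13.2% and 4.31% over all protein-coding genes. A single replicate in place of both gave 1 to 2 genes within 1 kb, 13 to 14 loci and a covered share of 0.330% to 0.346%. Without flanks, loci with a peak were 7, 8 and 6 in the 3 lists and 1 in both, and the covered share was 0.249%. Flanks of 10 kb gave 8 in both and 0.298%. At a fold enrichment of 3 or higher, genes within 1 kb were 0 in every list, loci were 2, 3, 0 and 0 in both, and the covered share was 0.0155%. At −log10 p of 3 or higher, genes within 1 kb were 0, 0 and 1, loci were 0, 2 and 3 with 0 in both, and the covered share was 0.0158%. These cutoffs kept few peaks by construction. A q-value of 0.05 or lower left no replicate 1 peak, so only replicate 2 has a value, 0 within 1 kb and 0 loci. Replicate 2 reduced to as many peaks as replicate 1 had 1 gene within 1 kb, and the covered share was 0.290%. Replicate 1 against IgG gave 8 loci in both and 0.360%. Without the loci of Krt12 and Krt20, an alternative added after seeing the data, the covered share was 0.262%. No paired analysis was possible because no result comes from a test and each list already sets an H3K27me3 library against its own control. The tags behind a peak are few, so the positions of single peaks carry counting error.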
